A study of Mus musculus with 13 samples.

Results

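Cumulus cells, the somatic cells that surround the oocyte when it is ovulated, were compared with metaphase II (MII) oocytes, using all genes measured on 3 of the 13 Illumina bead arrays of the series. The members of the comparison were set by the labels: 2 arrays of cumulus cells, replicates 1 and 2, against 1 array of MII oocytes. The other 10 arrays held fertilized and cloned embryos and entered only the normalization, the choice of probes and the estimate of the spread. Neither cell type had been given aphidicolin (Aph), the inhibitor of DNA replication that some embryo groups of the study received, and no other treatment is given for them. The labels call all 3 samples B6C3F1. The methods of the study instead name C3H/HeN mice of 6 to 8 weeks as oocyte donors and C57Bl/6J mice of 10 weeks as cumulus cell donors, superovulated with gonadotropins, with the oocytes collected 14 hours after hCG. If the methods are right, mouse strain and cell type cannot be told apart. Each array held RNA of many cells, so a smaller share of cells with a transcript and less transcript per cell cannot be told apart either. Nothing says that the cumulus replicates came from separate animals, and the MII oocyte had no replicate.

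The oocyte and its cumulus cells form a complex in which each side depends on the other. The oocyte secretes growth factors of the TGF-beta family, chiefly GDF9 and BMP15, that act on receptors of the cumulus cells, and it takes up nutrients and regulatory nucleotides from them through gap junctions. After the ovulatory hormone surge, cumulus cells lay down a matrix rich in hyaluronan and turn to progesterone synthesis, while the oocyte resumes meiosis and halts at metaphase II, living on stored mRNA because its own transcription has stopped. In cloning, cumulus cells are a common source of the nucleus and the MII oocyte of the cytoplasm.

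Values are log2 bead intensities after correction for background and quantile normalization, so a level is relative to the other mRNAs of the same array and is not an amount per cell. Labelling started from the poly(A) tail of mRNA, so less of an mRNA and a shorter tail on it cannot be told apart. The cumulus arrays differed in brightness. Mean raw intensity was 145.1 on replicate 1, 464.6 on replicate 2 and 288.6 on the oocyte array, and 5275, 7240 and 5222 genes were detected above background by at least 1 probe. After normalization the cumulus arrays correlated with each other at r = 0.951 across 9787 genes, and each correlated with the oocyte at 0.541, where genes are not independent replicates. Of the genes tested, 3750 were detected on all 3 arrays, 1489 on both cumulus arrays but not in the oocyte and 792 in the oocyte alone. A gene was called higher or lower when the limma model of 6 groups gave an adjusted p under 0.05 and the mean difference was at least 2-fold. With a single oocyte array, the spread of oocytes is taken to be that within the other groups. P-values therefore measure mostly the spread within the embryo groups, which hold most of the replicate arrays, and only in part that of the cumulus arrays. This spread may be technical. The arrays within an embryo group carry titles that differ from one another, so the spread may also hold other differences between those samples. A gene may thus miss a call through its spread among embryos, even where the cumulus arrays lay close together. Where a gene was not detected in the dimmer cell type, the fold is a lower bound and is written as at least N-fold: the mean of the brighter cell type against the lowest detected signal of each dimmer array, or the gene's own signal where higher. Where only 1 of the 2 cumulus arrays detected a gene that was lower there, the measured fold is given, which takes in an undetected value and is no bound. Medians of gene lists use the measured differences, and the median with undetected genes at these bounds, or at 0 where no bound could be given, follows in parentheses.

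Of the 9787 genes tested, 2151 (22.0%) were higher in cumulus cells and 1923 (19.6%) were lower. For every called gene both cumulus arrays lay on the same side of the oocyte. Of the genes called higher, 1525 differed at least 4-fold and 131 at least 16-fold on the measured means. Of those called lower, 1390 passed 4-fold and 374 passed 16-fold. These measured folds are limited by background, since 1173 of the genes called higher were not detected in the oocyte and 717 of those called lower on neither cumulus array. Another 443 genes were detected on all 3 arrays, were not called and lay within 1.5-fold of the oocyte on each cumulus array. The median difference over all genes was 0.08 on the log2 scale. The list counts below are to be read beside the 22.0% higher and 19.6% lower of all genes.

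**Figure D1:**
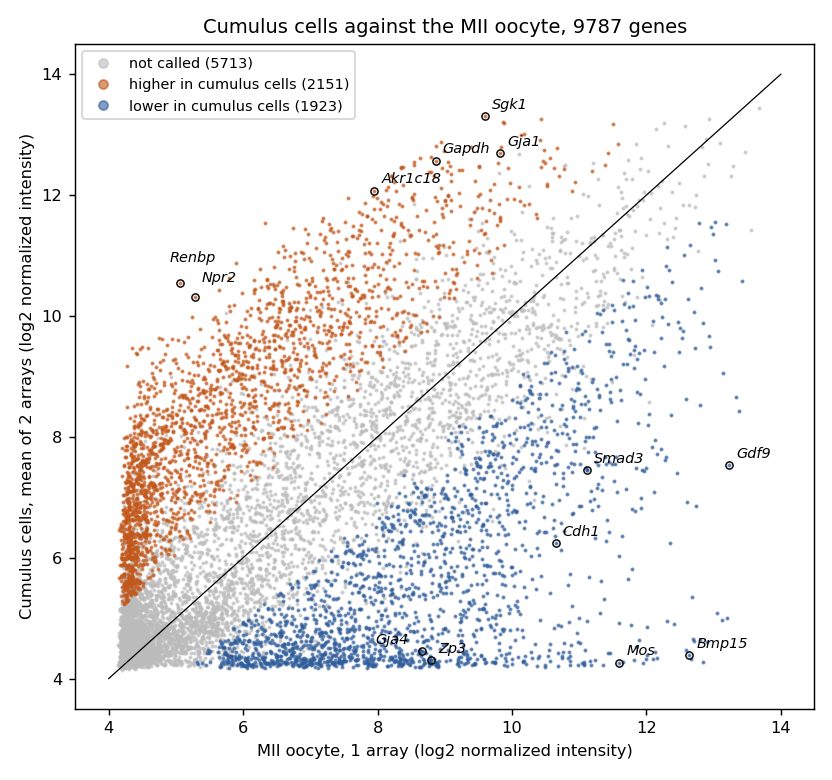
Each point is a gene, with its log2 normalized intensity in the MII oocyte (1 array, horizontal axis) and the mean of the 2 cumulus arrays (vertical axis). Orange marks the 2151 genes called higher and blue the 1923 called lower. The blue points along the lower edge are transcripts such as Bmp15 and Mos at background in cumulus cells.

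The 12 genes with the largest measured rises in cumulus cells included 10 that were not detected in the oocyte, so their order is not known. Renbp, which encodes an enzyme of N-acetylhexosamine metabolism, stood at 10.25 and 10.83 on the cumulus arrays and 5.06 on the oocyte array, a log2 difference of 5.48 ± 0.34 (SE), at least 29.2-fold, with adjusted p = 4.6e-06 by limma. Npr2, the receptor through which C-type natriuretic peptide makes cumulus cells produce the cyclic GMP that holds the oocyte in meiotic arrest, read 10.79 and 9.84 on the cumulus arrays and 5.28 on the oocyte array, at least 24.98-fold higher (adjusted p = 2.3e-05). Tmem86a, which encodes a lysoplasmalogenase, was detected in the oocyte and still differed 37.5-fold. The other members of the 12 were the zinc finger gene Zfp362, the calcium-binding S100a11, the transcriptional coactivator Cited4, the amino acid transporter Slc7a8, the pseudouridine synthase gene Trub2, the ribosomal protein genes Rps27 and Rpl37a, the scaffold gene Lin7b and the collagen gene Col6a1. Of these, Cited4 was detected in the oocyte and differed 31.5-fold, and the rest had bounds between at least 11.2-fold for Rpl37a and at least 15.6-fold for Lin7b. Another kept probe of Trub2 went the opposite way, and S100a11 and Rps27 lost their calls in the fit of the 3 arrays alone (adjusted p = 0.062 for S100a11 and 0.084 for Rps27). In all 12, both cumulus arrays lay at least 3 units above the oocyte on the log2 scale.

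The largest falls were transcripts at or near background in cumulus cells. Ezhip, an inhibitor of the histone methyltransferase complex PRC2 in germ cells, read 12.84 in the oocyte against 4.35 and 4.18 in cumulus cells, at least 204-fold lower (adjusted p = 1.2e-06 by limma). H1f8, the linker histone of the oocyte, read 12.67 in the oocyte against 4.38 and 4.27 in cumulus cells, at least 181-fold lower. Bmp15 read 12.64 in the oocyte against 4.58 and 4.21 in cumulus cells, at least 177-fold lower. Bcl2l10, a BCL2 family member of the oocyte, was at least 261-fold lower, Oosp1, an oocyte-secreted protein gene, at least 198-fold, and Tfap2c, the AP-2 gamma transcription factor that the oocyte supplies to the embryo, at least 185-fold. The other members of the 12 were Oas1d, Obox7, Tcl1, Pramel25, Rfpl4 and Trim61. Obox7, Pramel25 and Trim61 belong to multigene families with closely related copies, so their probes may read more than the gene named. Only Oas1d of the 12 was detected on a cumulus array, on replicate 1, where it read 5.71 against 13.13 in the oocyte. The bounds of the other 11 ran from at least 109.6-fold to at least 261-fold, and the measured difference of Oas1d, undetected on replicate 2, was 285-fold and is no bound.

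The labels were checked against marker genes. Of 15 oocyte markers tested, 13 were lower in cumulus cells and 0 higher, with a median log2 difference of -5.77 (-5.17), against 0.08 over all genes. Mos, the kinase that keeps the egg at metaphase II, read 11.59 in the oocyte against 4.26 and 4.27 in cumulus cells, at least 85.8-fold lower. Nlrp5, a maternal effect gene, read 10.83 in the oocyte against 4.29 and 4.38 in cumulus cells, at least 50.6-fold lower, and Dazl, a germ cell RNA-binding protein, 9.90 in the oocyte against 4.39 and 4.27 in cumulus cells, at least 26.5-fold lower. The summed raw intensity of the 15 was 61050 on the oocyte array against 1333 and 2026 on the cumulus arrays. The oocyte array detected 14 of them, all but Zp2, and each cumulus array detected 1, Gdf9. That exception was clear of background: Gdf9 had raw intensities of 202, 373 and 12030 on cumulus 1, cumulus 2 and the oocyte array. Its log2 levels were 8.43 and 6.63 on the cumulus arrays and 13.23 on the oocyte array, so that it was 51.8-fold lower in cumulus cells. Ddx4, the germ cell helicase known as VASA, was dim everywhere, at 5.26 and 4.61 on the cumulus arrays and 5.38 on the oocyte array, and was not called (adjusted p = 0.36).

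Of 15 cumulus and granulosa cell markers, 12 were higher in cumulus cells and 0 lower, with a median of 2.33 (1.53). A fit of the 3 arrays alone called 5 higher, and values without background correction 6. Inha, the inhibin alpha subunit, read 8.79 and 7.85 on the cumulus arrays and 5.09 on the oocyte array, at least 6.26-fold higher (adjusted p = 1.4e-04). Amhr2, the receptor of anti-Mullerian hormone, read 7.88 and 7.99 on the cumulus arrays and 5.36 on the oocyte array, at least 4.79-fold higher, and Fshr, the receptor of follicle-stimulating hormone, 5.95 and 7.35 on the cumulus arrays and 4.29 on the oocyte array, at least 1.97-fold higher. Foxl2, a granulosa transcription factor, was detected on none of the 3 arrays. Has2, the hyaluronan synthase of the expanding matrix, missed the 2-fold threshold, at 5.79 and 6.003 on the cumulus arrays and 4.95 on the oocyte array (adjusted p = 0.012), and Inhba, at 9.12 and 10.07 on the cumulus arrays and 7.37 on the oocyte array, did not pass the test (adjusted p = 0.14). Cd44, not detected in the oocyte, was among the 12 but had no lower bound, as its cumulus mean lay below the lowest detected oocyte signal. The bounds of Fshr, Ptgs2 and Inhbb lay under the 2-fold threshold, at 1.97-fold, 1.94-fold and 1.80-fold. Each cumulus array detected 14 of the 15. The oocyte array detected 5, Gja1, Inhba, Nr5a2, Ptx3 and Wt1, and the summed raw intensity was 7806 and 22180 on the cumulus arrays against 3013 on the oocyte array. Without cumulus replicate 1, calls were lost for Cd44 (adjusted p = 0.1), Fst (0.051) and Nr5a2 (0.059).

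Markers of other cells that could accompany cumulus cells were also read. Of 8 leukocyte markers, 3 were higher in cumulus cells and 0 lower: Cd52 at 7.77 and 8.46 on the cumulus arrays and 4.64 on the oocyte array, the macrophage lysozyme gene Lyz2 at 10.69 and 9.96 on the cumulus arrays and 6.57 on the oocyte array and the macrophage surface gene Adgre1 at 7.24 and 7.08 on the cumulus arrays and 4.24 on the oocyte array. Cd52 and Adgre1 were not detected in the oocyte and were at least 5.43-fold and at least 2.80-fold higher. Their adjusted p was 2.0e-04 to 0.012. Cumulus replicates 1 and 2 detected 5 and 7 of the 8, the oocyte array 2, and summed raw intensity was 2212, 11050 and 1076. Laptm5 gave 851.8, 6256 and 357.2 of these sums. It was 7.48-fold higher but not called, with SE 1.84 on the log2 scale, while its cumulus arrays lay 0.58 apart. Raw sums here and below are not corrected for the brightness or background of the arrays. The T cell gene Cd3e was at background on all 3 arrays. Tyrobp was also called higher without cumulus replicate 1 (adjusted p = 5.5e-04) and Cd74 without replicate 2 (0.0084). Of 4 blood markers none was called, although haemoglobin Hba-a1 was detected on both cumulus arrays, at 6.34 and 6.84 on the cumulus arrays and 4.24 on the oocyte array (adjusted p = 0.1). Without cumulus replicate 1 the haemoglobin gene Hbb-b2 was called higher, with a log2 difference of 1.09 (adjusted p = 0.0103), and 1 of the 4 was higher in the fit of the 3 arrays alone. Summed raw intensity of the 4 was 348.2 and 916.4 on the cumulus arrays and 376 on the oocyte array. None of 3 theca and stroma markers was called, and Cyp17a1, which defines theca cells, was at background on every array. The theca sum was 320.6, 721.4 and 308.9 in the same order. Of 4 oviduct markers, Ovgp1, oviductal glycoprotein, was higher in cumulus cells, at 6.06 and 6.65 on the cumulus arrays and 4.24 on the oocyte array (at least 1.60-fold, adjusted p = 0.026, and 0.11 without cumulus replicate 2), and Cdh1 was lower, while Foxj1 and Krt7 were not detected. The oviduct sum was 396.2, 867.1 and 2769. Of 5 endothelial markers only Pecam1 was called, and it was lower in cumulus cells, at 4.33 and 5.30 on the cumulus arrays and 8.97 on the oocyte array, with sums of 417.1, 734 and 1042 over the list. Pecam1 was detected on replicate 2 and the oocyte array, and Kdr was also called lower without cumulus replicate 1 (adjusted p = 0.032). The sperm list had 2 members tested, of which Spam1 was lower in cumulus cells, with sums of 153.5, 225.6 and 661.5. The part of these cells in the results below was not tested.

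**Figure D2:**
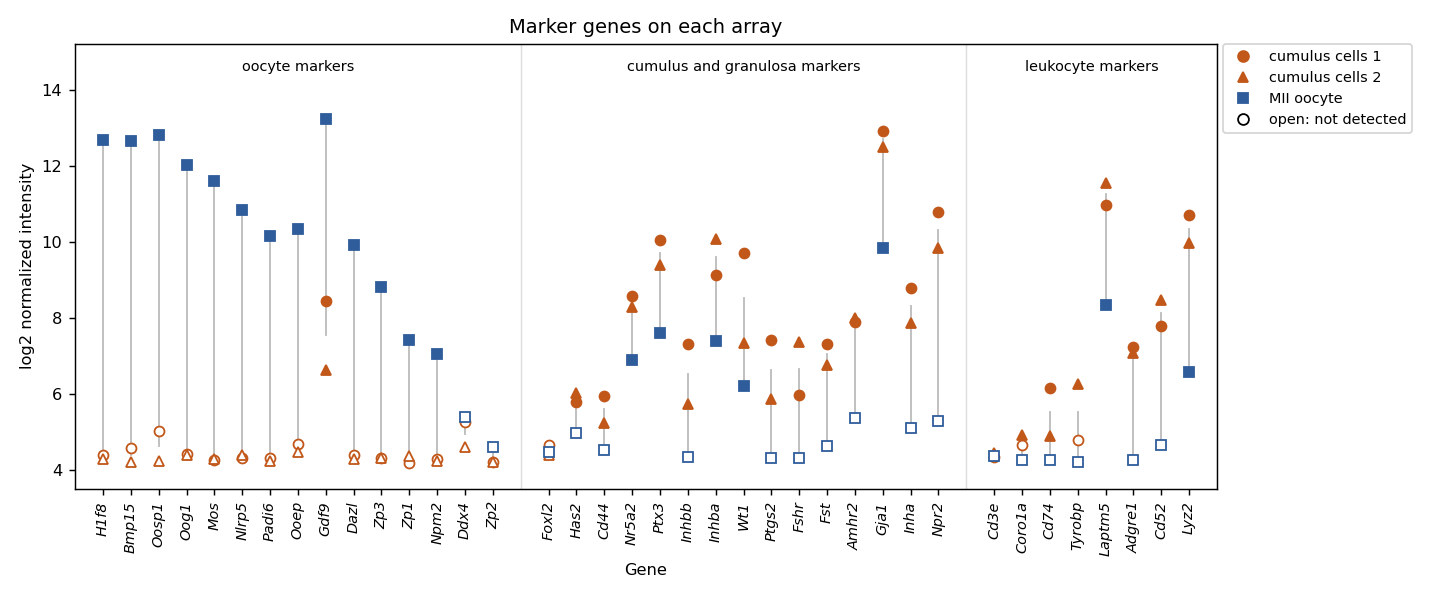
Log2 normalized intensity (vertical axis) of each marker gene tested (horizontal axis) on cumulus array 1 (circles), cumulus array 2 (triangles) and the MII oocyte array (squares), with open symbols where the plotted probe was not detected. Grey lines join the oocyte value to the cumulus mean. Of the oocyte markers only Gdf9 is detected on a cumulus array, and 12 of 15 cumulus markers were called higher.

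Genes of the egg coat and of fertilization divided by cell type. Of 8 tested, 5 were lower and 2 higher in cumulus cells. Zp3, a zona pellucida protein, read 8.79 in the oocyte against 4.30 and 4.31 in cumulus cells. The log2 difference was -4.49 ± 0.26 (SE), at least 12.3-fold lower (adjusted p = 3.6e-06 by limma). Zp1, which crosslinks the zona filaments, read 7.42 in the oocyte against 4.18 and 4.36 in cumulus cells, at least 4.74-fold lower. Astl, the ovastacin protease that hardens the zona after fertilization, was at least 34.8-fold lower, and Izumo1r, the sperm receptor Juno, at least 2.53-fold lower. Zp2 was at background on all 3 arrays by the probe used, so it gives no comparison. The tetraspanins Cd9 and Cd81, which eggs also carry, went the other way: Cd9, not detected in the oocyte, read 8.32 and 6.82 on the cumulus arrays and 4.48 on the oocyte array, at least 3.72-fold higher, and Cd81 12.71 and 12.22 on the cumulus arrays and 9.51 on the oocyte array, with adjusted p of 0.0014 and 0.0041.

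The bases just before the RefSeq start sites of Zp3 and Bmp15 are shown because both were oocyte transcripts at background in cumulus cells, and that of Amhr2 as a cumulus transcript not detected in the oocyte. The sequences are from RefSeq on build GRCm38.p6, 250 bases before the start, 5′ to 3′ on the gene's strand. Capitals mark the E-box CANNTG in Zp3 and Bmp15, the core that basic helix-loop-helix factors such as FIGLA bind, and AAGGTCA in Amhr2, the core bound by the granulosa factors NR5A1 and NR5A2, searched on both strands.
Zp3, chr5:135979855-135980104, plus strand: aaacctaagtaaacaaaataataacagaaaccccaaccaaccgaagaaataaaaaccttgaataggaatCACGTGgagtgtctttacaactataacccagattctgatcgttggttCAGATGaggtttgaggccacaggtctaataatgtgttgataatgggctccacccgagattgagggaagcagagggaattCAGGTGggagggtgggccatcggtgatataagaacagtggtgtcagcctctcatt
Bmp15, chrX:6320725-6320974, minus strand: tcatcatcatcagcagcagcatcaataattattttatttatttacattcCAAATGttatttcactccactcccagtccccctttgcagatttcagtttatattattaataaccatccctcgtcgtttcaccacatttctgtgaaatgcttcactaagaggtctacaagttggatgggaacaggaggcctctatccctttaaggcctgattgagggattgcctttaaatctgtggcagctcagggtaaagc
Amhr2, chr15:102445117-102445366, plus strand: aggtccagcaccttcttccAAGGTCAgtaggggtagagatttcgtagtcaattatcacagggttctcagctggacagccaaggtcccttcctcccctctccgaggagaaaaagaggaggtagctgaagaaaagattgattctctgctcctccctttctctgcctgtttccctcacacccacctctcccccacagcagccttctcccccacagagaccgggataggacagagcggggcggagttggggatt
Zp3 held 3 E-boxes and Bmp15 held 1, and Amhr2 held 1 AAGGTCA. These letters were not particular to the called genes: CANNTG stood in 65.9% of promoters of genes lower in cumulus cells, 62% of those higher and 63.7% of the 7991 tested genes with a promoter sequence. AAGGTCA stood in 3.29% of promoters of genes higher in cumulus cells, 3.04% of those lower and 3.85% of all tested. A match is a description of the letters and not a binding site.

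Transcripts of proteins that the oocyte stores for the embryo formed the list with the lowest median, equal to that of the oocyte markers. The lists share members, among them Ooep, Nlrp5 and Padi6, and Ooep, at -5.77, was the middle gene of both. Of 13 genes of the subcortical maternal complex and the NLRP family, 12 were lower in cumulus cells and 0 higher, with a median of -5.77 (-4.99). This complex lies beneath the egg membrane and is needed for the first cleavages. Nlrp14, detected on cumulus replicate 1 only of the cumulus arrays, read 12.68 in the oocyte against 6.07 and 4.64 in cumulus cells, and Nlrp4a 11.07 in the oocyte against 4.18 and 4.35 in cumulus cells, at least 59.9-fold lower. Ooep read 10.34 in the oocyte against 4.68 and 4.47 in cumulus cells, at least 36.1-fold lower, and Padi6, a peptidylarginine deiminase of the cytoplasmic lattices, 10.16 in the oocyte against 4.30 and 4.23 in cumulus cells, at least 31.8-fold lower. Zbed3, a partner of the complex, was at least 41.7-fold lower. Tle6 was 4.62-fold lower, with 10.47 in the oocyte against 8.67 and 7.86 in cumulus cells. Nlrp4e alone was not called (adjusted p = 0.15). Nlrp4a, Nlrp4c, Nlrp4e, Nlrp4f and Nlrp9a have close relatives in the genome, so single members of the family are uncertain.

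Of 11 oocyte transcription factor genes, 7 were lower in cumulus cells and 0 higher, with a median of -1.995 (-1.08). Sall4, a zinc finger factor of the oocyte and pluripotent cells, read 12.30 in the oocyte against 5.56 and 4.35 in cumulus cells, at least 140.4-fold lower (adjusted p = 1.2e-05). Obox1, an oocyte homeobox gene with near-identical relatives, read 11.82 in the oocyte against 4.38 and 4.23 in cumulus cells, at least 100.5-fold lower, and Sohlh2, a factor of early follicle growth, 6.75 in the oocyte against 4.52 and 4.49 in cumulus cells, at least 2.99-fold lower. Of 15 germline RNA-binding and piRNA genes, 10 were lower and 0 higher, with a median of -4.03 (-3.13). They included Nanos1 and Nanos2, translational repressors of the germ line, with bounds of at least 42.0-fold for Nanos1 and at least 56.5-fold for Nanos2, Elavl2, an RNA-binding protein of the oocyte, at least 25.4-fold lower, and Tdrd12, a piRNA pathway gene, at least 18.6-fold lower.

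Genes that store, activate and destroy maternal mRNA were another oocyte group, with 12 of 18 lower and 0 higher in cumulus cells and a median of -2.75 (-2.19). Btg4 couples the CCR4-NOT deadenylase to maternal mRNA at maturation, and Cnot6l is a subunit of that deadenylase. Btg4 read 10.84 and Cnot6l 11.59 in the oocyte. In cumulus cells Btg4 read 5.01 and 4.87 and Cnot6l 4.87 and 4.99. Of the cumulus arrays only replicate 2 detected them, and the measured differences were 60.0-fold for Btg4 and 101.1-fold for Cnot6l. Dcp1a, of the decapping complex, was detected on all 3 arrays, at 7.06 and 7.75 on the cumulus arrays and 12.46 on the oocyte array, 33.1-fold lower in cumulus cells. Cpeb1, which directs cytoplasmic polyadenylation, was at least 13.07-fold lower and Eif4e1b, the oocyte cap-binding protein, at least 8.91-fold lower. Adjusted p of these was 3.8e-06 to 2.9e-04 by limma. The deadenylase subunit Cnot7 was also lower, at 9.28 and 8.201 on the cumulus arrays and 11.86 on the oocyte array. The general factors Ddx6, Pum2 and Papola were not called, with log2 differences of -0.15, -0.29 and 0.48.

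Meiosis and metaphase II arrest genes were lower in cumulus cells for 19 of 33 and higher for 2, with a median of -1.98 (-1.75). Bub1b, a spindle checkpoint kinase, read 5.53 and 6.94 on the cumulus arrays and 12.35 on the oocyte array and was detected on replicate 2 only of the cumulus arrays, with a measured difference of 69.3-fold lower (adjusted p = 2.2e-05). Aurkc, the meiotic Aurora kinase, read 10.16 in the oocyte against 4.27 and 4.29 in cumulus cells, at least 31.9-fold lower. Espl1, or separase, detected on the same cumulus array, read 9.46 in the oocyte against 4.27 and 4.93 in cumulus cells, and Mad2l1, of the same checkpoint, 11.19 in the oocyte against 6.57 and 7.01 in cumulus cells. The oocyte kinase gene Wee2 and the actin nucleators Fmn2 and Spire1, which position the meiotic spindle, were also lower, Wee2 at least 6.77-fold, Fmn2 at least 5.73-fold and Spire1 16.5-fold. The 2 higher genes were Fzr1, the CDH1 activator of the anaphase-promoting complex, at 11.84 and 11.47 on the cumulus arrays and 8.59 on the oocyte array, and Cdk1, at 6.59 and 6.03 on the cumulus arrays and 4.27 on the oocyte array, whose probe was not detected in the oocyte, at least 1.55-fold higher.

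DNA replication genes, the machinery whose block the study examined in embryos, were lower in cumulus cells for 23 of 44 and higher for 3, with a median of -2.06 (-1.65). Origin licensing genes were among them: Orc6 read 11.45 in the oocyte against 5.94 and 6.89 in cumulus cells, Mcm2 9.74 in the oocyte against 4.79 and 5.21 in cumulus cells and Cdt1 10.76 in the oocyte against 7.30 and 7.36 in cumulus cells. Of the cumulus arrays only replicate 2 detected Mcm2 and Cdc45. Cdc45, of the replicative helicase, was 22.6-fold lower and Dbf4, the partner of the CDC7 kinase, 18.4-fold lower. Uhrf1, which brings the maintenance methyltransferase to replicated DNA, read 11.22 in the oocyte against 7.67 and 6.27 in cumulus cells, 19.1-fold lower. The clamp gene Pcna read 9.01 in the oocyte against 6.93 and 6.42 in cumulus cells. Adjusted p for the 7 was 1.4e-05 to 0.0038. The clamp loader gene Rfc2 went the other way, at 10.01 and 10.16 on the cumulus arrays and 7.10 on the oocyte array, 7.94-fold higher in cumulus cells, as did Gins4 and Top2a. The Top2a call was lost without cumulus replicate 1 (adjusted p = 0.12).

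Of 28 chromatin and DNA methylation genes, 17 were lower and 2 higher in cumulus cells, with a median of -1.50 (-1.50). Dnmt3l, the partner of the germ line methyltransferases, read 9.25 in the oocyte against 4.89 and 4.55 in cumulus cells, at least 16.9-fold lower, and Dnmt3b 10.48 in the oocyte against 6.75 and 6.60 in cumulus cells, 14.03-fold lower. Dppa3, the maternal protein Stella that shields the maternal genome from demethylation, was at least 10.9-fold lower. Higher were Ehmt2, the G9a methyltransferase of histone H3 lysine residues, at 7.04 and 7.36 on the cumulus arrays and 4.35 on the oocyte array, at least 2.89-fold (adjusted p = 4.4e-04), and Hdac1, a histone deacetylase, at 7.17 and 5.76 on the cumulus arrays and 4.25 on the oocyte array, at least 1.74-fold (adjusted p = 0.011). Neither was detected in the oocyte.

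Ubiquitin and proteasome genes parted. Of 33 ubiquitin ligase and conjugating enzyme genes, 19 were lower in cumulus cells and 3 higher, with a median of -2.08 (-2.08), whereas of 31 proteasome genes 21 were higher and 2 lower, with a median of 1.66 (1.57). On the ligase side Rfpl4 read 12.10 in the oocyte against 4.43 and 4.2 in cumulus cells, at least 122-fold lower, and Trim61 11.95 in the oocyte against 4.29 and 4.23 in cumulus cells, at least 109.6-fold lower. The oocyte F-box genes Fbxw15, Fbxw19 and Fbxw24, which have near-identical relatives, were lower too, Fbxw15 at least 56.3-fold, Fbxw19 at least 59.5-fold and Fbxw24 at least 41.1-fold. On the proteasome side Psmc2, an ATPase of the base, read 12.31 and 12.62 on the cumulus arrays and 8.37 on the oocyte array, 17.0-fold higher (adjusted p = 9.7e-06), and Psmb4, of the core, 11.51 and 11.997 on the cumulus arrays and 8.72 on the oocyte array, 8.16-fold higher. Psmd9, an assembly chaperone, was lower, at 5.58 and 5.05 on the cumulus arrays and 8.48 on the oocyte array (adjusted p = 0.0015), and was detected on replicate 2 only of the cumulus arrays. The regulator Psme3 was also lower, at 7.78 and 7.77 on the cumulus arrays and 9.60 on the oocyte array (adjusted p = 0.04 by limma). It was detected on all 3 arrays. Its call was lost when either cumulus array was left out, with log2 differences of -1.83 without replicate 1 and -1.82 without replicate 2.

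Protein synthesis genes had the largest share of higher members among the lists other than markers. Of 53 cytosolic ribosomal protein genes, 42 were higher and 1 lower, or 79.2% higher against 22.0% of all genes, with a median of 2.79 (2.65). Fitting the 3 arrays alone called 28 higher, and the count was the same when they were also normalized alone before that fit. Rpl38 read 12.37 and 12.26 on the cumulus arrays and 8.2 on the oocyte array, 17.3-fold higher (adjusted p = 5.2e-06), and Rps26 11.34 and 11.37 on the cumulus arrays and 6.96 on the oocyte array, 20.98-fold higher. The probes of Rps27, Rpl37a and Rpl23a were not detected in the oocyte, and these genes were at least 13.0-fold, at least 11.2-fold and at least 13.05-fold higher. Rpl27 was the member that was lower, at 6.10 and 6.12 on the cumulus arrays and 8.85 on the oocyte array, 6.66-fold (adjusted p = 3.2e-04). Ribosomal protein genes have many processed pseudogenes, so a probe may also read copies.

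The start sites of ribosomal protein genes carry a feature that the comparison did not use, the terminal oligopyrimidine tract: a C at the first base of the mRNA followed by a run of C and U, through which their translation is regulated together. The 10 bases before and the 15 from the RefSeq start on GRCm38.p6 are shown for 4 of the genes called higher. These 4 were shown because an annotated start had such a tract, and the run of pyrimidines from the start is in capitals.
Rpl28, chr7:4792955-4792979, plus strand: tctcgtgtctCTCTTTCCgtctccg
Rpl35a, chr16:33056472-33056496, plus strand: gcttgccttcCTCTTTCCgccatct
Rpl38, chr11:114668570-114668594, plus strand: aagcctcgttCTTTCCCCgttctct
Rps27, chr3:90213634-90213658, minus strand: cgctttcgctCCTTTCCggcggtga
Rpl28 read 11.94 and 12.46 on the cumulus arrays and 9.97 on the oocyte array, and Rpl35a 10.71 and 10.82 on the cumulus arrays and 7.18 on the oocyte array. A C followed by 4 pyrimidines at an annotated start was found in 10 of 45 ribosomal protein genes with a sequence (22.2%), in 8 of the 35 called higher (22.9%), and in 2.98% of all 7991 tested genes. Of genes called higher overall the share was 3.01% and of those called lower 3.29%, close to that of all tested genes. Annotated starts can be off by a few bases.

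Mitochondrial respiration genes were mostly higher. Of 65 oxidative phosphorylation genes, 46 were higher in cumulus cells and 0 lower, with a median of 2.12 (1.72). Fitting the 3 arrays alone called 29 higher. Cox4i1, of cytochrome c oxidase, read 11.58 and 11.72 on the cumulus arrays and 7.84 on the oocyte array, 14.1-fold higher (adjusted p = 2.9e-05), and Ndufs7, of complex I, 9.95 and 10.46 on the cumulus arrays and 6.398 on the oocyte array, 14.01-fold. Uqcr10, of complex III, read 11.14 and 11.49 on the cumulus arrays and 7.62 on the oocyte array. Ndufa7, another complex I gene, was not detected in the oocyte and was at least 7.09-fold higher. Cycs, cytochrome c itself, read 5.45 and 4.94 on the cumulus arrays and 5.93 on the oocyte array and was not called (adjusted p = 0.44).

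Glycolysis genes were mostly on the cumulus side or not called, with 1 exception. Of 23 genes, 11 were higher in cumulus cells and 1 lower, with a median of 1.44 (1.30). Cumulus cells are known to break down glucose for the oocyte, which uses the pyruvate. Gapdh read 12.43 and 12.71 on the cumulus arrays and 8.86 on the oocyte array, 13.08-fold higher (adjusted p = 6.7e-05). Tpi1 read 12.13 and 12.49 on the cumulus arrays and 8.21 on the oocyte array, Pkm 10.94 and 10.99 on the cumulus arrays and 7.47 on the oocyte array and Aldoa 10.07 and 10.51 on the cumulus arrays and 6.93 on the oocyte array. Pfkp, the platelet form of phosphofructokinase, was at least 6.57-fold higher. Bpgm, which makes 2,3-bisphosphoglycerate, best known from red blood cells, was the exception: 11.35 in the oocyte against 4.21 and 4.24 in cumulus cells, at least 72.5-fold lower in cumulus cells (adjusted p = 4.7e-07).

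Of 20 genes of steroid synthesis, 13 were higher in cumulus cells and 1 lower, with a median of 2.49 (1.59), and 8 were higher without cumulus replicate 1. Cyp11a1, which cleaves the cholesterol side chain in the first step, read 9.66 and 9.56 on the cumulus arrays and 6.29 on the oocyte array, 9.96-fold higher (adjusted p = 0.012). Hsd3b1, which forms progesterone, read 7.76 and 7.64 on the cumulus arrays and 4.33 on the oocyte array, at least 4.08-fold higher (adjusted p = 1.1e-05), although closely related Hsd3b copies may share its probe. Akr1c18, which inactivates progesterone, read 11.82 and 12.33 on the cumulus arrays and 7.95 on the oocyte array, 17.4-fold higher. Akr1cl and Tspo were called but lost the call when either cumulus array was left out (adjusted p 0.056 and 0.099 for Akr1cl, 0.057 and 0.17 for Tspo). Star, which brings cholesterol into mitochondria, did not pass the test, at 4.66 and 5.19 on the cumulus arrays and 4.26 on the oocyte array (adjusted p = 0.077). The lower gene was Stard4, at 5.07 and 4.68 on the cumulus arrays and 6.87 on the oocyte array, at least 3.25-fold, whose adjusted p was 0.08 without cumulus replicate 2.

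Of 19 cholesterol synthesis genes, 6 were higher (31.6%, against 22.0% of all genes) and 2 lower (10.5%, against 19.6%). Their median was 1.02 (0.81). Mouse oocytes are known to rely on cumulus cells for cholesterol. Lss, lanosterol synthase, read 8.80 and 7.80 on the cumulus arrays and 4.51 on the oocyte array, at least 6.17-fold higher (adjusted p = 3.3e-04), and Fdps, farnesyl diphosphate synthase, 11.66 and 12.80 on the cumulus arrays and 9.46 on the oocyte array, 6.85-fold higher. Cyp51 and Dhcr7, which act on the sterol ring, were at least 3.97-fold and at least 1.76-fold higher. Insig1, which retains the sterol sensor in the endoplasmic reticulum, was lower in cumulus cells, at 6.94 and 4.82 on the cumulus arrays and 9.41 on the oocyte array, 11.6-fold (adjusted p = 0.0056). In the fit of the 3 arrays alone 1 gene of the list was higher.

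Of 18 genes of cumulus expansion, 12 were higher in cumulus cells and 0 lower, with a median of 1.46 (0.59). The fit of the 3 arrays alone called 2, and values without background correction called 5. Runx1, a transcription factor induced by the ovulatory surge, read 8.15 and 7.80 on the cumulus arrays and 4.91 on the oocyte array, at least 4.93-fold higher (adjusted p = 1.2e-04). Cebpb, another such factor, read 9.82 and 7.69 on the cumulus arrays and 5.21 on the oocyte array, at least 8.49-fold higher. Ptgs2, the inducible prostaglandin synthase, read 7.41 and 5.85 on the cumulus arrays and 4.30 on the oocyte array and the prostaglandin receptor gene Ptger2 6.16 and 7.27 on the cumulus arrays and 4.26 on the oocyte array, both at background in the oocyte, at least 1.94-fold and at least 2.05-fold higher. Ptx3, which crosslinks the hyaluronan matrix, read 10.03 and 9.38 on the cumulus arrays and 7.58 on the oocyte array, 4.36-fold higher, and its adjusted p was 0.0031. Adamts1, a protease of ovulation, was not called, at 5.24 and 4.71 on the cumulus arrays and 4.28 on the oocyte array (adjusted p = 0.073).

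Genes of extracellular matrix, proteases and their inhibitors were higher in cumulus cells for 23 of 39 and lower for 2, with a median of 2.67 (2.33). Col6a1, Col18a1 and Col4a2 encode collagens, and Col18a1 read 11.52 and 11.74 on the cumulus arrays and 7.19 on the oocyte array, 21.7-fold higher. Sparc, a collagen-binding protein, read 9.70 and 9.59 on the cumulus arrays and 5.18 on the oocyte array, at least 15.7-fold higher (adjusted p = 1.2e-05), and Lox, which crosslinks collagen, 10.17 and 9.13 on the cumulus arrays and 5.54 on the oocyte array, at least 15.8-fold higher. The laminin gene Lamb1 and the laminin receptor gene Itga6 were lower, at 6.96 and 6.73 on the cumulus arrays and 9.46 on the oocyte array and 4.21 and 4.37 on the cumulus arrays and 6.45 on the oocyte array, 6.12-fold and at least 2.42-fold. Of 34 actin cytoskeleton and adhesion genes, 16 were higher and 2 lower, with a median of 1.77 (0.90). Vim, the intermediate filament of mesenchymal cells, was not detected in the oocyte, at 9.32 and 8.50 on the cumulus arrays and 4.45 on the oocyte array, at least 9.42-fold higher. Zyx, of focal adhesions, read 10.87 and 10.67 on the cumulus arrays and 6.68 on the oocyte array, 17.0-fold higher. Cdh1, E-cadherin, was lower in cumulus cells, at 6.96 and 5.53 on the cumulus arrays and 10.65 on the oocyte array, 21.2-fold (adjusted p = 0.0018). The other lower gene, Actn4, had 2 of its 3 kept probes of opposite sign.

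Of 19 immediate early and AP-1 genes, 12 were higher in cumulus cells and 0 lower, with a median of 2.51 (2.17). Fos read 10.26 and 8.82 on the cumulus arrays and 5.81 on the oocyte array, 13.3-fold higher (adjusted p = 0.0034), and Junb 8.80 and 7.21 on the cumulus arrays and 4.26 on the oocyte array, at least 5.04-fold higher. Sgk1, a kinase induced by hormones and cell stress, read 13.15 and 13.47 on the cumulus arrays and 9.59 on the oocyte array, 13.14-fold higher (adjusted p = 3.2e-05). Egr2 read 10.74 and 11.39 on the cumulus arrays and 7.58 on the oocyte array. Dusp6, a phosphatase of ERK, was called but its adjusted p was 0.064 without cumulus replicate 1. Of 29 stress and unfolded protein genes, 16 were higher and 1 lower, with a median of 1.58 (1.08). Nupr1 and Xbp1, stress-response transcription factors, read 11.12 and 10.45 on the cumulus arrays and 6.25 on the oocyte array and 11.73 and 12.10 on the cumulus arrays and 8.15 on the oocyte array. The lower gene was Ppp1r15a, the GADD34 subunit that restores translation after stress, at 6.66 and 6.84 on the cumulus arrays and 8.52 on the oocyte array (adjusted p = 0.0078).

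Lysosome genes were higher for 21 of 39 and lower for 1, with a median of 1.77 (1.44). Ctsb, cathepsin B, read 12.06 and 12.07 on the cumulus arrays and 8.28 on the oocyte array, 13.8-fold higher (adjusted p = 2.5e-05), and Asah1, acid ceramidase, 11.99 and 11.92 on the cumulus arrays and 7.56 on the oocyte array, 20.98-fold higher. The lower gene was Atp6v1b2, of the proton pump, at 9.44 and 10.87 on the cumulus arrays and 11.80 on the oocyte array, with adjusted p = 0.077 without cumulus replicate 1. Of 31 antigen presentation and interferon genes, 10 were higher (32.3%, against 22.0% of all genes) and 0 lower, with a median of 0.92 (0.01). Psme1, the proteasome activator, read 9.47 and 9.89 on the cumulus arrays and 5.71 on the oocyte array, 15.6-fold higher, and Psmb10, of the immunoproteasome, 7.63 and 7.20 on the cumulus arrays and 4.26 on the oocyte array, at least 3.35-fold higher. The chemokine gene Cxcl1 read 10.01 and 10.84 on the cumulus arrays and 6.59 on the oocyte array, and its adjusted p went from 0.0098 to 0.051 without cumulus replicate 2. As given above, 3 of 8 leukocyte markers were also higher in cumulus cells.

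Of 31 antioxidant and glutathione genes, 13 were higher in cumulus cells and 2 lower, with a median of 1.17 (0.66). The microsomal glutathione transferases split: Mgst1 read 11.16 and 11.56 on the cumulus arrays and 7.14 on the oocyte array and Mgst2 10.58 and 10.89 on the cumulus arrays and 6.75 on the oocyte array, whereas Mgst3, detected on replicate 2 only of the cumulus arrays, read 5.33 and 5.501 on the cumulus arrays and 10.57 on the oocyte array, 35.6-fold lower in cumulus cells (adjusted p = 7.8e-06). Adjusted p was 9.7e-04 for Mgst2, and 0.012 for Mgst1, which became 0.053 without cumulus replicate 2. Txnip, the inhibitor of thioredoxin, was the other lower gene, at 7.999 and 7.59 on the cumulus arrays and 12.21 on the oocyte array, 21.4-fold. Of 27 amino acid transport and synthesis genes, 8 were higher (29.6%, against 22.0% of all genes) and 3 lower (11.1%, against 19.6%). Their median was 0.75 (0.00), and fewer were higher without cumulus replicate 2. Asns, asparagine synthetase, read 9.23 and 9.48 on the cumulus arrays and 5.92 on the oocyte array, 10.8-fold higher (adjusted p = 6.1e-04), and Slc7a8, a neutral amino acid exchanger, 9.73 and 9.04 on the cumulus arrays and 4.41 on the oocyte array, at least 13.08-fold higher. Slc7a2, a carrier of cationic amino acids, was lower in cumulus cells, at 4.84 and 4.43 on the cumulus arrays and 8.43 on the oocyte array, at least 9.59-fold. Slc7a11, the cystine carrier, was also lower, at 7.99 and 7.07 on the cumulus arrays and 10.64 on the oocyte array (adjusted p = 0.012, and 0.063 without cumulus replicate 2).

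**Figure D3:**
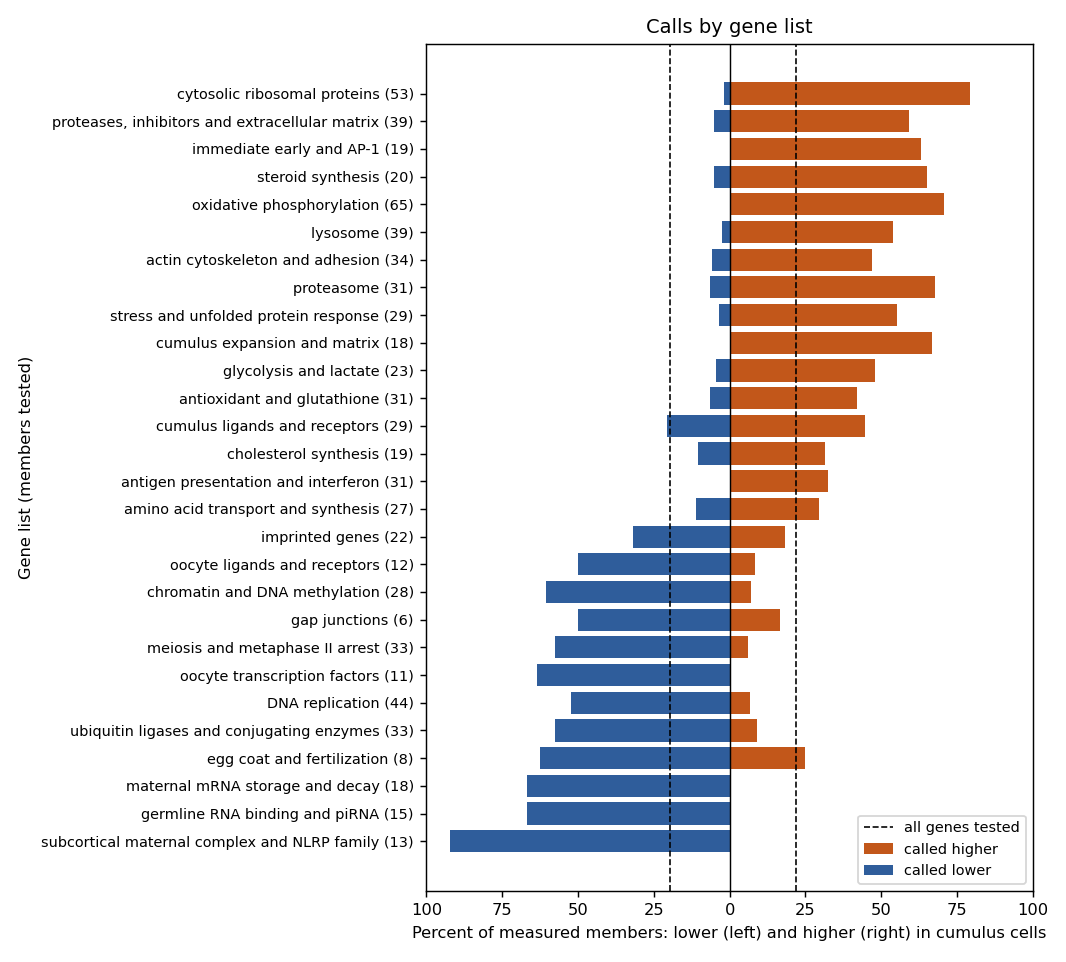
For each gene list with its number of members tested (vertical axis), the percent of members called higher in cumulus cells (orange, to the right) and lower (blue, to the left), ordered by median log2 difference. Dashed lines mark the 22.0% and 19.6% of all tested genes. Ribosomal proteins (79.2% higher) and the subcortical maternal complex with the NLRP family (92.3% lower) stand at the ends.

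The signals that pass between the cells were read from both sides. Of 12 oocyte ligand and receptor genes, 6 were lower in cumulus cells and 1 higher, with a median of -1.29 (-0.65). Gdf9 and Bmp15 were both lower, as given above. Tgfb2, a TGF-beta ligand, read 8.77 in the oocyte against 4.21 and 4.42 in cumulus cells, at least 12.2-fold lower (adjusted p = 7.7e-04). Bmp6 was detected on all 3 arrays, at 6.14 and 7.55 on the cumulus arrays and 8.28 on the oocyte array, 2.71-fold lower, and without cumulus replicate 1 its difference of -0.73 fell short of 2-fold. Efna4, an ephrin, was at least 2.52-fold lower. Gpr3, the receptor whose constant signal keeps cyclic AMP high in the arrested oocyte, was at least 1.54-fold lower, at 5.80 in the oocyte against 4.56 and 4.45 in cumulus cells. Ghr, the growth hormone receptor, was the higher member, at 7.15 and 5.58 on the cumulus arrays and 4.70 on the oocyte array (at least 1.62-fold, adjusted p = 0.021), with a difference of 0.88 without cumulus replicate 1. Igf2r, at 7.53 and 7.53 on the cumulus arrays and 8.10 on the oocyte array, and Bmp5, at 4.68 and 4.42 on the cumulus arrays and 5.83 on the oocyte array, were not called. Fgf8, Fgfr2 and Lpar2 were at background on all 3 arrays.

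On the cumulus side, of 29 ligand, receptor and Smad genes, 13 were higher (44.8%, against 22.0% of all genes) and 6 lower (20.7%, against 19.6%). Their median was 1.13 (0.98). Receptors for the oocyte's ligands were unevenly placed. Tgfbr1, the ALK5 receptor through which GDF9 acts, read 12.29 and 11.35 on the cumulus arrays and 9.22 on the oocyte array, 6.05-fold higher (adjusted p = 0.001), and Tgfbr2 7.39 and 7.87 on the cumulus arrays and 4.42 on the oocyte array, at least 3.88-fold higher. Bmpr1a read 9.28 and 8.68 on the cumulus arrays and 5.98 on the oocyte array, 7.97-fold higher (adjusted p = 0.0068). Bmpr2, the type II receptor shared by GDF9 and BMP15, was detected on cumulus replicate 2 only, at 4.46 and 4.89 on the cumulus arrays and 4.45 on the oocyte array, and was not called (adjusted p = 0.89). Bmpr1b, or ALK6, which binds BMP15, was lower in cumulus cells by its brightest probe, at 9.37 and 9.09 on the cumulus arrays and 10.48 on the oocyte array (adjusted p = 0.0032), but 2 of its 4 kept probes had the opposite sign. Egfr, the receptor of the ovulatory EGF-like signals, was not called, at 7.64 and 7.35 on the cumulus arrays and 8.05 on the oocyte array, and 2 of its 4 probes also disagreed in sign. Acvr1 and Acvr2b were not called either, with log2 differences of 0.72 ± 0.58 and -1.67 ± 0.71 (SE).

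The Smads, which carry these signals to the nucleus, lay on both sides. Smad3, of the branch used by GDF9 and activin, read 7.55 and 7.33 on the cumulus arrays and 11.11 on the oocyte array, 12.7-fold lower in cumulus cells (adjusted p = 0.0032). Smad2, of the same branch, read 7.76 and 7.58 on the cumulus arrays and 10.02 on the oocyte array, 5.08-fold lower (adjusted p = 0.035), a call lost when either cumulus array was left out (0.08 and 0.11). Smad5, of the branch used by BMP15, read 9.34 and 8.52 on the cumulus arrays and 7.35 on the oocyte array, 2.99-fold higher (adjusted p = 0.023, and 0.1 without cumulus replicate 1). Smad1, of the same branch, read 8.47 and 9.42 on the cumulus arrays and 10.26 on the oocyte array and was not called (adjusted p = 0.17). Neither was the shared Smad4, at 10.41 and 9.57 on the cumulus arrays and 8.91 on the oocyte array (adjusted p = 0.098), which was called higher without cumulus replicate 2 (0.046).

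Several ligands and secreted antagonists of the cumulus cells themselves were higher there. Inha and Inhbb, inhibin and activin subunits, read 8.79 and 7.85 on the cumulus arrays and 5.09 on the oocyte array and 7.31 and 5.73 on the cumulus arrays and 4.32 on the oocyte array, at least 6.26-fold and at least 1.80-fold higher. Fst, the activin antagonist follistatin, read 7.30 and 6.75 on the cumulus arrays and 4.63 on the oocyte array, at least 2.56-fold higher, and Grem1, a BMP antagonist that GDF9 induces in granulosa cells, 7.23 and 7.17 on the cumulus arrays and 4.31 on the oocyte array, at least 2.88-fold higher (adjusted p = 1.2e-04). Btc, the EGF-like ligand betacellulin, read 9.08 and 7.22 on the cumulus arrays and 6.01 on the oocyte array (adjusted p = 0.025, and 0.079 without cumulus replicate 1). Jag1 and Igf2 had been listed with cumulus cells but were lower there. Jag1, a Notch ligand, read 9.91 in the oocyte against 4.49 and 4.31 in cumulus cells, at least 26.8-fold lower (adjusted p = 1.1e-06). Igf2 read 7.0 in the oocyte against 4.28 and 4.36 in cumulus cells, at least 3.55-fold lower, and lost its call when either cumulus array was left out (adjusted p 0.056 and 0.052). Il6st, the receptor subunit gp130, was also lower, at 4.55 and 5.49 on the cumulus arrays and 7.60 on the oocyte array (adjusted p = 0.0028), and was detected on replicate 2 only of the cumulus arrays. Igf1, at 7.21 and 6.11 on the cumulus arrays and 5.53 on the oocyte array, was not called (adjusted p = 0.11), but was called higher without cumulus replicate 2 (0.031).

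The connexins that join the cells lay on both sides. Of 6 gap junction genes tested, 1 was higher and 3 lower in cumulus cells. Gja1, connexin 43, which couples cumulus cells to one another, read 12.90 and 12.48 on the cumulus arrays and 9.82 on the oocyte array, 7.31-fold higher (adjusted p = 0.0015). It was detected in the oocyte, with raw intensities of 4475, 10240 and 1260 on cumulus 1, cumulus 2 and the oocyte array. Gja4, connexin 37, which the oocyte contributes to the junctions with its cumulus cells, read 8.66 in the oocyte against 4.53 and 4.39 in cumulus cells, at least 11.2-fold lower (adjusted p = 8.2e-05). Gjb2 was at least 5.003-fold lower, and Gjc1, detected on cumulus replicate 2 and the oocyte array, 5.75-fold lower. Gja6 and Gjb5 were detected on none of the 3 arrays.

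**Figure D4:**
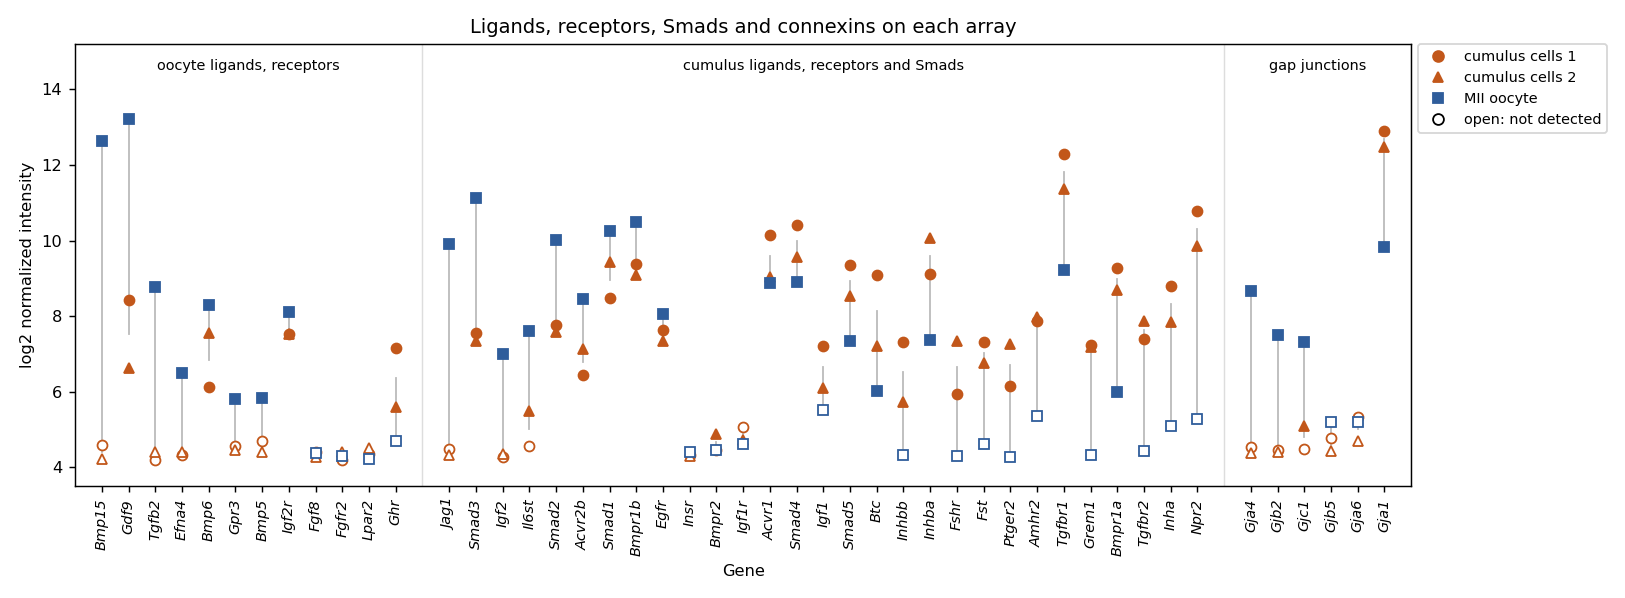
Log2 normalized intensity (vertical axis) of each ligand, receptor, Smad and connexin gene tested (horizontal axis) on cumulus array 1 (circles), cumulus array 2 (triangles) and the MII oocyte array (squares), with open symbols where the plotted probe was not detected. Gdf9, Bmp15 and Gja4 are high in the oocyte, while Npr2, Tgfbr1, Inha and Gja1 are high in cumulus cells.

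Of 22 imprinted genes, 4 were higher in cumulus cells (18.2%, against 22.0% of all genes) and 7 lower (31.8%, against 19.6%), with a median of -0.09 (0.00). Lower were Mest and Grb10, at 9.59 in the oocyte against 4.29 and 4.36 in cumulus cells and 9.85 in the oocyte against 4.46 and 5.17 in cumulus cells, at least 21.4-fold and, for Grb10, which replicate 2 alone of the cumulus arrays detected, 32.7-fold, with Asb4 lower by at least 9.88-fold and Phlda2 by at least 6.88-fold. Higher were Ndn, at 9.41 and 8.39 on the cumulus arrays and 5.44 on the oocyte array, and Nap1l5, at 8.67 and 7.24 on the cumulus arrays and 4.92 on the oocyte array, at least 9.35-fold and at least 4.86-fold, and also Dhcr7 and Gnas. Adjusted p for the 8 was 5.4e-05 to 0.016 by limma. The arrays do not separate parental alleles.

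The cumulus arrays were also compared with each other, as a description, since each was a single array. Of 5239 genes detected on both, 422 were at least 2-fold higher on replicate 2 and 602 on replicate 1, together 19.5%. Their median absolute difference was 0.51 on the log2 scale, against 1.44 between cumulus mean and oocyte over genes detected on all 3 arrays. Detection was one-sided: 2001 genes were detected on replicate 2 alone and 36 on replicate 1 alone. Higher on replicate 2 were the matrix protease gene Mmp9, at 5.74 on replicate 1 and 8.97 on replicate 2, the G protein regulator gene Rgs16, at 6.01 and 8.84, the lipid droplet gene Plin4, at 6.03 and 8.65, the choline transporter gene Slc44a1, at 6.68 and 9.27, the lysosomal gene Hexa, at 7.41 and 9.98, and Nagk, at 7.11 and 9.63. In the other direction stood the helicase gene Wrn, at 9.36 on replicate 1 and 5.56 on replicate 2, the signalling gene Ccn4, at 10.12 and 7.19, the steroid enzyme gene Hsd3b2, at 9.01 and 6.11, the actin-binding gene Tmsb10, at 9.23 and 6.47, Tsc22d1, at 9.14 and 6.42, and Rhob, at 8.48 and 5.87. Against the oocyte, Mmp9, Rgs16, Plin4, Slc44a1 and Wrn did not pass the test, and for Mmp9, Slc44a1 and Wrn the oocyte, at 6.16, 7.13 and 8.77, lay between the replicates. Without replicate 1, Wrn was called lower in cumulus cells (adjusted p = 0.036). Hexa lost its call without replicate 2 (adjusted p = 0.17).

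**Figure D5:**
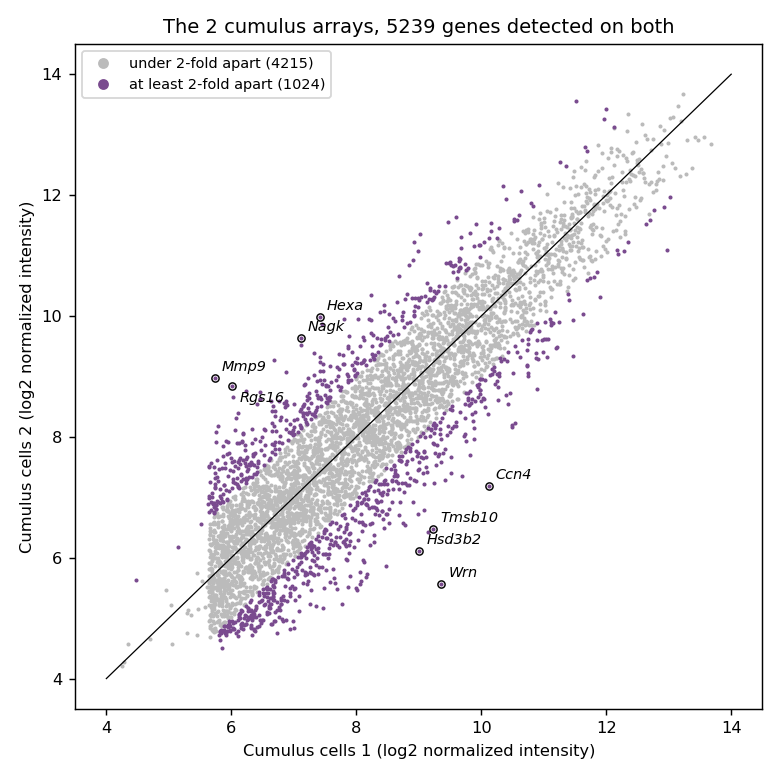
Each point is a gene detected on both cumulus arrays, with its log2 normalized intensity on replicate 1 (horizontal axis) and replicate 2 (vertical axis). Purple marks genes at least 2-fold apart, 602 higher on replicate 1 and 422 on replicate 2, and the named genes are those with the largest differences.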

How the data were processed

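Biotin-labelled cRNA of 13 samples was hybridized to Illumina mouse bead arrays. The deposited intensity of each probe is a linear mean bead brightness, which the authors summarised with BeadStudio 3.2 and did not normalize, and beside it the authors deposited a detection p-value that moves in 798 steps. A second deposited table holds log2 values that the authors had background-adjusted and quantile normalized. The submitters' processing notes also name lumi and RMA, with no version. The labels and the methods name different amplification kits, both of which start from the poly(A) tail, so levels are those of polyadenylated mRNA, and the methods name a chip type larger than the one whose 25697 probes are listed. No counting depth exists for arrays, and their number limits the precision.

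The intensities were background-corrected and quantile normalized over the 13 arrays with the neqc function (limma 3.58.1, R 4.3.3, offset 16), which took the negative controls from the detection p-values. Probes detected (p under 0.01) on any array and named in the platform annotation were used, 12579 in all, and 1719 probes had no symbol. The probe with the highest mean stood for each symbol. This gave 9787 of 16593 genes. A limma model of 6 groups (7 residual degrees of freedom) with eBayes gave two-sided p-values, adjusted by Benjamini-Hochberg over all 9787 genes. A gene counted as detected on an array when any kept probe was. The script was tested on simulated data.

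The comparison, its members and the 36 gene lists, 8 of them of cell type markers, were chosen with earlier results of these data known, so the list counts are descriptions with no test. Some genes, such as H1f8 and Zp3, stand in more than 1 list, so the lists are not independent of each other. Named genes were the 12 largest rises and falls, up to 5 members per list and direction with the largest change, every member of the ligand and receptor, connexin and marker lists, and the 6 largest differences each way between the cumulus arrays. Genes named in the text beyond these, such as Tle6, Cdt1, Pcna, Cnot7, Cycs, Star and Rpl28, were chosen after their values were seen. Promoter sequences were matched by gene ID, which succeeded for 7991 genes. Alternatives covered normalization, background, scaling, offset, filters, probe choice, the samples in the fit, moderation, the call and leaving out each cumulus array.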

Additional observations from a re-analysis of the deposited data

How the results depend on the processing

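The calls depended most on which arrays set the spread and on background correction. Fitting the 3 arrays alone, with 1 residual degree of freedom, gave 1403 genes higher and 1508 lower in cumulus cells, against 2151 and 1923. In the other alternatives both counts stayed within 1.5 times of these values. Leaving out 1 cumulus array gave 1830 to 1938 genes higher and 1718 to 1729 lower. Without background correction the counts were 1438 and 1436, and without the Aph+ arrays 2648 and 2288. Scaling to the 75th percentile moved the median of all genes from 0.08 to -0.48 and the share of calls that were higher from 52.8% to 43.1%. The deposited log2 values put that median at 0.20, and requiring detection on 1 of the 3 arrays at 0.35. Between 99.8% and 100% of the calls measured in both kept their sign in each of the alternatives that refitted the model. The share still called was lowest with the 3 arrays alone, at 65.3%, and was 66.2% without background correction.

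No named gene that was called changed sign in these alternatives, and none that was not called passed in the opposite direction. Of 219 named genes called, 52 lost the call in the fit of the 3 arrays alone, 48 when the 3 arrays were also normalized alone, 33 without background correction, 19 without cumulus cells replicate 1 and 15 without replicate 2. In the fit of the 3 arrays alone, list counts also fell from 17 to 10 lower for chromatin, and, for genes higher, from 16 to 9 for stress, 16 to 10 for actin and adhesion, 21 to 12 for lysosome, 21 to 13 for the proteasome, 13 to 7 for cumulus ligands and receptors and 4 to 2 for imprinted genes. Without background correction, 4 oocyte transcription factors and 3 oocyte ligands and receptors were lower, against 7 and 6. The cause was not tested beyond the fewer arrays in those fits. No paired analysis was possible because the MII oocyte has a single array. Detection on cumulus replicate 1, the dimmer array, limits what can be said of weak genes.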
